A study of Mus musculus with 18 samples.

Results

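The nuclear genes of the mitochondrial respiratory chain were described in a catalog of accessible chromatin of mouse macrophages. Members were the protein-coding nuclear genes of GENCODE M21 whose symbol begins with Nduf, Uqcr or Atp5 or with Cox and a digit from 4 to 8, together with Sdha, Sdhb, Sdhc, Sdhd and Cycs. This rule, which uses names and no measured value, gave 95 gene models with 94 symbols among 21938 nuclear protein-coding genes. They were 38 subunit genes of complex I, 8 complex I assembly factors, 4 genes of complex II, 8 of complex III, Cycs, 18 of complex IV and 18 of ATP synthase.

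Accessibility was measured by ATAC-seq, in which the Tn5 transposase cuts and tags exposed DNA, in bone marrow-derived macrophages (BMDMs). Per the labels and methods, the marrow was that of male C57/BL6 mice of 6 to 8 weeks and of wild type genotype. Every culture was exposed to the solvent DMSO for 1 h, and 8 of the 9 groups then received either lipopolysaccharide (LPS) or IL-4, both at 10 ng/mL, for 30 min, 1 h, 2 h or 4 h, while the ninth stayed without stimulus. Each group had 2 libraries. The 3 deposited lists of reference peaks, summits and extended regions (peaks with flanks, joined where they overlap) were pooled over the 18 libraries, so that levels per stimulus, time or library, and the spread between replicates, were not analysed here. For the same reason the values below are descriptions of 1 catalog, with no test.

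The respiratory chain passes electrons from NADH and succinate to oxygen through complexes I to IV, with cytochrome c carrying them between complexes III and IV, and ATP synthase uses the proton gradient that results. Most subunits are encoded in the nucleus and a small set in mitochondrial DNA, whose reads the authors removed. In macrophages the chain is known to be remodelled on activation: LPS lowers respiration in favour of glycolysis, whereas IL-4 is known to favour oxidative phosphorylation. NRF-1, the ETS factor GABP, YY1 and the ERR receptors are the textbook activators of its nuclear genes.

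The labelled cell type was checked at start sites. All 8 macrophage markers (Csf1r, Adgre1, Itgam, Cd68, Mertk, Fcgr1, Spi1 and Lyz2) had a peak there, with summit scores from 1176 to 2021. Of 8 markers of other cells, 6 had none, among them Cd3e, Ncr1, Epcam, Alb and Myh6, while Gfap had a summit of 934 and Col1a1 one of 613. The catalog held 82391 reference peaks, 84660 summits and 59617 extended regions. The summit score is the authors' own value, on a scale that is not given in the sources used here. Over all summits it ran from 102 to 2781 with a median of 737, and a higher score was read only as a higher value within this list.

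Sequences at the summits of well-known members are shown first, because the comparison of motifs below turns on them. Each is written 5′ to 3′ on the strand of its gene, on mm10, and covers the best start-site summit and the nearest sites. A stretch ends at most 30 bases into a transcript. For Sdhb the stretch lies at the start site instead. Capitals mark letters that match any of 12 consensus motifs searched on both strands.
Cycs, chr6:50566579-50566679, minus strand: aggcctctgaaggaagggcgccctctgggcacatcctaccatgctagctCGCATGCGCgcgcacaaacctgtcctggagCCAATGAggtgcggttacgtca
Sdha, chr13:74350251-74350345, minus strand: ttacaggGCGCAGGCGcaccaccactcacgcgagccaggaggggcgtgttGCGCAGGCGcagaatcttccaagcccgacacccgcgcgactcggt
Sdhb, chr4:140961133-140961232, plus strand: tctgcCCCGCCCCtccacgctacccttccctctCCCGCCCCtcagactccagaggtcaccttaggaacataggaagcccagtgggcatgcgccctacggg
Sdhc, chr1:171150574-171150661, minus strand: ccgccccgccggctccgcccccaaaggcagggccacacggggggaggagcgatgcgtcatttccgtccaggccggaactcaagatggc
Sdhd, chr9:50603837-50603937, minus strand: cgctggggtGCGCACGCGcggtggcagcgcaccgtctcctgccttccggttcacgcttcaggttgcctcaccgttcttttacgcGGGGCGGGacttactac
Cox4i1, chr8:120668152-120668251, plus strand: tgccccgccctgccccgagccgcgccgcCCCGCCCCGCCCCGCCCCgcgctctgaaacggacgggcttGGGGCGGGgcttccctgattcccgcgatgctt
Cox5b, chr1:36691393-36691478, plus strand: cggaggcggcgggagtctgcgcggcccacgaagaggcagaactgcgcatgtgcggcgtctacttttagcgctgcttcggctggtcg
In Cycs the capitals are an NRF-1 site and a CCAAT box. Sdha carries NRF-1 sites only, Sdhd an NRF-1 and an SP/KLF site, and Sdhb and Cox4i1 SP/KLF sites only. The printed stretches of Sdhc and Cox5b matched none of the 12 motifs.

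A start-site peak, meaning a reference peak within 1000 bp of any annotated start of the gene, was present at 88 of 95 members (92.6%, 95% Wilson interval 85.6 to 96.4%). The share over all protein-coding genes was 56.5%. Such intervals cover counting error over genes only. The 7 members without a peak were Cox4i2, Cox6a2, Cox7b2, Cox8b, Cox8c, Ndufa4l2 and the second gene model named Atp5o. This second Atp5o model starts within the body of the first and runs on past it, so that it is an extra annotation of a locus whose usual start did carry a peak. The other 6 are all tissue isoforms. Outside the 8 tissue isoforms, 86 of 87 members had a start-site peak.

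The best start-site summit of the members had a median score of 1474 (interquartile range 1212 to 1776, lowest 349, highest 2193). The median over the 12402 coding genes with a start-site peak was 1456 (interquartile range 1071 to 1799). Of the members, 45 of 88 (51.1%) lay above that median and 20 (22.7%) above its upper quartile. Members thus held start-site peaks more often than coding genes in general, while the medians of their scores were close and the scores of members lay within the wider range of all genes with a peak (140 to 2781). The median width of the peak with the best summit was 368 bp, against 356 bp over all genes.

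**Figure D1:**
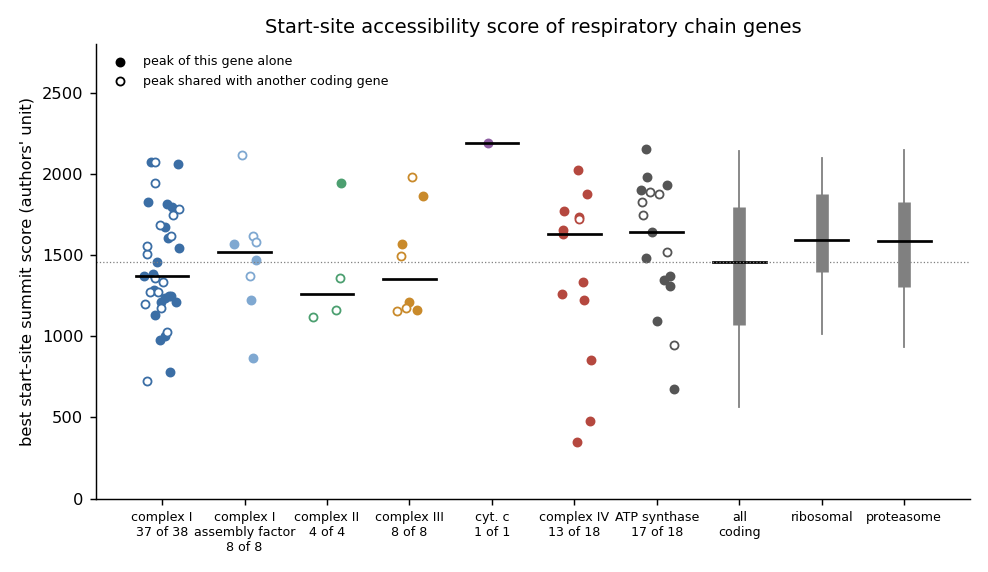
Best start-site summit score (authors' unit) of every respiratory chain gene with a peak, by complex, with the number of genes with a peak under each name; open points are peaks shared with another coding gene, black lines are medians, and grey bars span the quartiles (thin lines the 5th to 95th percentile) of the comparison genes. The members spread around the dotted line, the median of 1456 over all coding genes, with Cycs at 2193 the highest and Cox6b2 at 349 the lowest.

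Complex I, the NADH dehydrogenase, had a peak at 37 of 38 subunit genes, with a median score of 1369 and a range from 727 to 2074. The highest were Ndufb5, an accessory subunit, and Ndufv1, which encodes the subunit that binds NADH, both at 2074. The lowest were Ndufa1 at 727 and Ndufs4 at 780, both accessory subunits. Among the subunits that carry the flavin and iron-sulfur clusters, Ndufs8 scored 2061, Ndufv2 1812, Ndufs7 1606 and Ndufs1 1176. By their best summits, Ndufs1 thus lay below the median of all genes and the others above it. These were named after their values had been seen. The widest start-site peak of all members belonged to Ndufs8, with 779 bp, followed by those of Ndufa13 with 690 bp and Atp5j with 674 bp, and the narrowest after Cox7b were those of Ndufc2 with 159 bp and Ndufb3 with 164 bp.

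The best summit of some complex I genes was not the one nearest to their start. Ndufa13 had its best summit of 1505, in a 690 bp peak, 865 bp downstream of its annotated start, and its nearest summit scored 1025 at 544 bp downstream. The best summit of Ndufa11 scored 1747 at an offset of -712 bp (negative is upstream), while the summit nearest to its own start, at -33 bp, scored 706. The best summit of Ndufs8 lay at -101 bp, and its nearest, at -14 bp, scored 1002. That of Ndufs7 lay at -123 bp, and its nearest, 10 bp downstream, scored 1431. The 8 complex I assembly factors, which help to build the complex and are not part of it, all had a peak, with scores from 867 at Ndufaf1 to 2114 at Ndufaf8 and a median of 1518. Ndufaf8 was among the 5 highest of all members.

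Complex II, which feeds electrons from succinate into the chain, had all 4 genes marked. Sdhb, the iron-sulfur subunit, scored 1942, at the 84.2 percentile of genes with a start-site peak. Sdhd, one of the membrane anchors, scored 1357, Sdha, the flavoprotein, 1164, and Sdhc, the other anchor, 1117. Sdhb thus stood above the other subunits of its complex. All 8 genes of complex III, which passes electrons from ubiquinol to cytochrome c, had a peak as well. Their scores ran from 1153 at Uqcrb to 1982 at Uqcrq, with 1864 at Uqcrfs1, which encodes the Rieske iron-sulfur protein. The best summit of Uqcrq lay at -232 bp in a peak shared with Gdf9, and its nearest, at -10 bp, scored 727. For Uqcrh and Uqcr10 the best summits lay at -378 bp and -308 bp, and the nearest scored 1048 and 812. The core proteins Uqcrc1 and Uqcrc2 scored 1164 and 1568. Cycs, somatic cytochrome c, had the highest score of all members, 2193 in a peak of 660 bp, at the 96.4 percentile.

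Complex IV, cytochrome c oxidase, had the widest range of values and the most members without a peak (5 of 18). Cox8a scored highest, at 2021, followed by Cox7a2 at 1877 and Cox7a1 at 1773. Cox4i1, whose product is a large nuclear subunit of the enzyme, scored 1721, and Cox5b, a matrix-side subunit that binds zinc, scored 1632. At the other end Cox6b2 scored 349 and Cox6c scored 476, the lowest values of all members. Cox6c is broadly used and still lay at the 2.7 percentile of genes with a start-site peak. Cox7b had the narrowest peak of all members, 136 bp wide, with a score of 856.

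ATP synthase had a peak at 17 of 18 gene models, all but the second Atp5o, with a median of 1644. The genes Atp5g1, Atp5g2 and Atp5g3 encode the same mature c subunit of the rotor ring. Their scores were 2153, 1982 and 1369, so that those of Atp5g1 and Atp5g2 lay above the upper quartile of all genes, 1799, and that of Atp5g3 below the median. Of the head and central stalk, Atp5b (the catalytic beta subunit) scored 1929, Atp5d 1903, Atp5e 1644 and Atp5c1 1518. Of the peripheral stalk and its neighbours, Atp5j scored 1890, Atp5f1 1825, Atp5h 1747 and Atp5o 1480, and of the small membrane subunits Atp5mpl scored 1345, Atp5k 1308 and Atp5j2 1094. Atp5a1, the alpha subunit that stands beside beta in the same ring, scored 945 at its best start-site summit. Atp5l had the lowest score of the complex, 675, at an offset of -547 bp, and the summit nearest to its start, 45 bp downstream, scored 654.

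On chromosome X, Ndufb11 scored 1786, Cox7b 856 and Ndufa1 727. All 3 had a peak, whereas 36.1% of the 948 coding genes of that chromosome did. Male cells hold a single copy of this chromosome, and its part in these scores was not tested. The median over all coding genes of chromosome X with a peak was 1260, so that Ndufb11 lay above it and Cox7b and Ndufa1 below.

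The tissue isoforms were set beside their broadly used partners. Isoforms of complex IV replace a subunit in muscle, lung or testis, and Ndufa4l2 is known as a hypoxia-induced relative of Ndufa4. Ndufa4 itself is now counted with complex IV, although its symbol places it in complex I here. All 7 partners had a start-site peak, and 2 of 8 isoforms did. Cox4i1 scored 1721, and the nearest peak to the start of Cox4i2 lay 2416 bp away. Cox6a1 scored 1332, with the nearest peak to Cox6a2 at 1849 bp. Cox8a scored 2021, with the nearest peaks to Cox8b and Cox8c at 8197 bp and 20607 bp. Ndufa4 scored 1272, with the nearest peak to Ndufa4l2 at 1836 bp. For Cox7b2 the nearest peak was 612959 bp away, and it was the only member with 0 extended regions within 50 kb.

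The 2 isoforms with a peak differed from each other. Cox6b2, the testis form, scored 349 against 1224 for Cox6b1 and lay at the 0.8 percentile. Cox7a1, the form of heart and skeletal muscle, scored 1773 (72.5 percentile) in a peak of 419 bp with its summit 35 bp upstream of a start, close to the 1877 of Cox7a2. Its peak held no start site of another coding gene. Whether Cox7a1 is transcribed in these cells was not analysed here. Stretches from 70 bases before to 30 after the most upstream start are shown for an isoform with a high peak, one with a weak peak and those without.
Cox7a1, chr7:30184074-30184173, plus strand: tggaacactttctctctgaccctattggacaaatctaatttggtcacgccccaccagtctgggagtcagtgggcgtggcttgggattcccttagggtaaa
Cox6b2, chr7:4753065-4753164, minus strand: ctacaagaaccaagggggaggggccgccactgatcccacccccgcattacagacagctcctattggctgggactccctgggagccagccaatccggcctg
Cox4i2, chr2:152754103-152754202, plus strand: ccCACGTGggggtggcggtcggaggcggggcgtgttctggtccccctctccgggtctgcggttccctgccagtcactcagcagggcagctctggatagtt
Cox6a2, chr7:128206358-128206457, minus strand: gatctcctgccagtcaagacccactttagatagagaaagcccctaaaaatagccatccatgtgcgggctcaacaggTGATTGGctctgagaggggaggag
Cox7b2, chr5:71548176-71548275, minus strand: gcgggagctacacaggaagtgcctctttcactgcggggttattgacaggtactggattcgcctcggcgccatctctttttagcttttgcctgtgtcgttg
Cox8b, chr7:140900417-140900516, minus strand: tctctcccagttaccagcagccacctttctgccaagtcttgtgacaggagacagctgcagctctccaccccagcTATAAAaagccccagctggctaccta
Cox8c, chr12:102899246-102899345, plus strand: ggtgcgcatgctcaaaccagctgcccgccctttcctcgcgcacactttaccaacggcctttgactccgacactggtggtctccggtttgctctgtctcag
Ndufa4l2, chr10:127514897-127514996, plus strand: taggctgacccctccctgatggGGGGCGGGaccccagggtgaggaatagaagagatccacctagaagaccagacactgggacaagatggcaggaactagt
The capitals are E-box letters in Cox4i2, NF-Y letters in Cox6a2, TATA letters in Cox8b and SP/KLF letters in Ndufa4l2, and the other stretches held none of the 12 motifs. Those of Cox6a2 and Cox8b lie past the annotated start, within the transcript. Neither summit window of Cox7a1 or Cox6b2 was CpG-rich by the definition below.

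**Figure D2:**
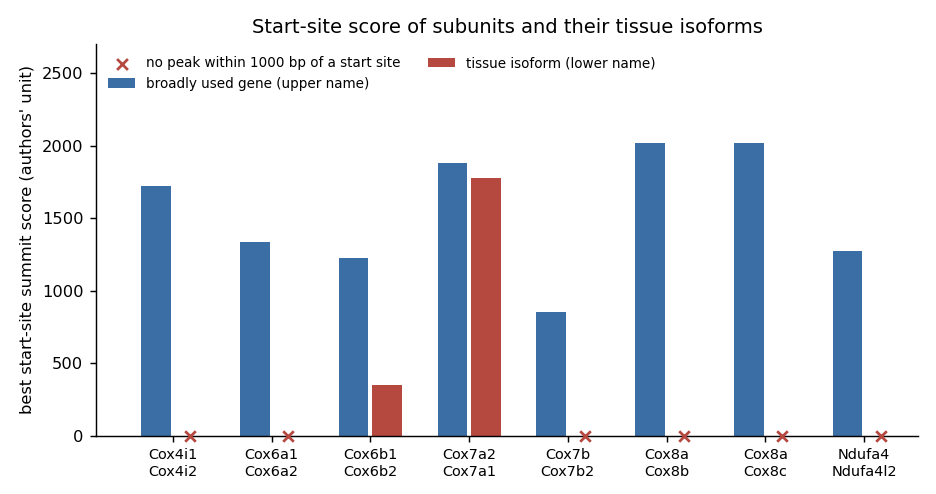
Best start-site summit score (authors' unit, bars from 0) of 7 broadly used subunit genes (blue, upper name) and their 8 tissue isoforms (red, lower name), where a cross stands for no peak within 1000 bp of a start; Cox8a is drawn beside both of its isoforms. Red bars are present for Cox6b2 at 349 and Cox7a1 at 1773 alone.

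Many members had the start of another gene in or near their peak. Of the 88 members with a peak, 34 (38.6%) had in the same peak, or within 1000 bp of it, a start of another coding gene, against 21.5% over all coding genes with a peak. The nearest other gene ran on the opposite strand in 33 of the 34 (37.5% of members, 18.3% over all genes), and the exception was Ndufa13 with Yjefn3. These starts on opposite strands lay 3 to 336 bp apart with a median of 82 bp, and over all genes with such a peak the median was 106 bp. Counting only opposite-strand starts within 300 bp, the share was 35.2% of members and 14.9% of all genes with a start-site peak. No 2 members shared a peak with each other. Shared peaks were spread over the complexes, with 16 of 37 in complex I, 4 of 8 assembly factors, 3 of 4 in complex II, 4 of 8 in complex III, 6 of 17 in ATP synthase and 1 of 13 in complex IV.

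Several partners also make mitochondrial proteins or act on these genes. Ndufb5 shared its peak with Mrpl47 at 20 bp and Ndufs6 with Mrpl36 at 29 bp, and both partners encode proteins of the mitochondrial ribosome. Sdhd lay 98 bp from Timm8b, which encodes an import chaperone. Atp5j lay 31 bp from Gabpa, the gene of the DNA-binding GABP subunit. Other partners act in the cytosol or nucleus, such as Rps28 with Ndufa7 at 10 bp, Eef1b2 with Ndufs1 at 3 bp and Rbm10 with Ndufb11 at 3 bp. Partners known from a restricted tissue were also found, such as Gdf9, an oocyte factor, 192 bp from Uqcrq. Which of both genes a shared peak serves cannot be told apart from these lists, and the median score was 1512 for shared and 1418 for unshared peaks.

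Summits of members lay close to the start. The best summit was within 100 bp of an annotated start in 75 of 88 members (85.2%), against 65.4% over all genes, 86.6% of ribosomal protein genes and 92.1% of proteasome genes, and its median position was 24 bp upstream (interquartile range 65.2 to 4.25 bp upstream). By annotation, 56 best summits lay upstream of the gene, 25 in a first exon, 4 in another exon, and 3 in an intron or between alternative starts. Over all genes with a peak the median offset was -43 bp, and this split by annotation was not counted for them. A summit window was called CpG-rich with at least 55% GC and an observed over expected CpG ratio of at least 0.6 within 100 bp of the summit. This was met by 77 members (87.5%) and by 69.5% of all genes with a peak. The median GC content of members was 62.4%, and that of all genes 63.7%, so that members were not richer in GC itself.

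The motifs were then counted within 100 bp of the best start-site summit. The consensus letters were GCGCANGCG for NRF-1, CCGGAAGT for ETS, AANATGGCG for YY1 and TNAAGGTCA for ERR. GGGGCGGG stood for SP/KLF, CCAATNA for NF-Y, TGACGTCA for CRE, CACGTG for the E-box, ACTACANTT for ZNF143/THAP11, TATAAA for TATA, GAGGAAGT for PU.1 and TGANTCA for AP-1. A match is a description of letters, not of binding. Matches of 1 motif that overlap, such as both strands of a palindrome, were counted as 1 site, and 0 sites of different motifs overlapped at members, although the ETS and PU.1 letters share their core.

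NRF-1 letters were present at 23 of 88 members (26.1%, interval 18.1 to 36.2%) and at 11.9% of all coding genes with a start-site peak. By complex they were found at 7 of 17 genes of ATP synthase, 6 of 37 of complex I, 2 of 8 assembly factors, 2 of 4 of complex II, 2 of 8 of complex III, 3 of 13 of complex IV and Cycs. With only CpG-rich summits compared, a comparison added after the data had been seen, the shares were 29.9% and 16.4%. With unshared peaks only, they were 27.8% and 10.6%. More than 1 NRF-1 site was held by 5 members (5.68%) and 1.73% of all genes.

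YY1 letters were present at 14 members (15.9%, interval 9.72 to 24.95%) and 4.07% of all genes. This share moved with the window, to 5.68% within 50 bp of the summit (all genes 1.5%) and 29.5% within 200 bp (all genes 7.596%). From 250 bp before to 50 bp after the most upstream start it was 5.26% of all 95 members and 2.91% of all genes, both counted with or without a peak. Within 100 bp of the summit, the letters were held by 8 genes of complex I, 3 of complex III and 3 of ATP synthase. ERR letters were rare, at 3 members (3.41%, interval 1.17 to 9.55%) and 0.395% of all genes. Within 50 bp they were at 1.14% of members (all genes 0.194%). The 3 within 100 bp were Ndufb4, Sdhd and Atp5g3, each of which also held NRF-1 letters.

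ETS letters gave another picture. They were present at 6 members (6.82%, interval 3.16 to 14.1%), against 7.54% of all genes, 20.7% of cytosolic ribosomal protein genes and 18.4% of proteasome genes. With unshared peaks only, 2 of 54 members held them (3.70%, all genes 6.63%). The 6 were Ndufa13, Ndufs1, Ndufs3, Uqcr11, Cox8a and Atp5h. A shorter core without the first base, CGGAAGT, was found at 15 members (17.05%) and 12.4% of all genes. At least 1 of the NRF-1, YY1 and ETS motifs was found at 37 members (42.0%) and 21.5% of all genes, and 2 of them at 6 members (6.82%, all genes 1.92%, CpG-rich genes 2.62%, proteasome genes 7.895%). The share with at least 1 was 28.5% over genes with a CpG-rich summit, 37.8% over ribosomal protein genes and 39.5% over proteasome genes.

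The other motifs did not share a direction. NF-Y letters were at 15 members (17.05%, all genes 17.2%), and within 50 bp at 13.6% against 11.6%. CRE letters were at 4 (4.55%, all genes 3.43%, and within 200 bp 6.82% against 3.88%). TATA letters were at 3 (3.41%, all genes 2.99%), and within 200 bp at 5.68% against 6.71%. PU.1 letters were at 2 (2.27%, all genes 3.97%). SP/KLF letters were at 17 members (19.3%, interval 12.4 to 28.8%), with 28% over all genes. E-box letters were at 3 members (3.41%, all genes 9.07%), AP-1 at 1 (1.14%, all genes 5.75%) and ZNF143/THAP11 at 1 (1.14%, all genes 2.32%). Within 200 bp the shares were 7.955% (all genes 12.9%), 4.545% (all genes 8.152%) and 3.409% (all genes 3.088%). The AP-1 site within 100 bp was at Ndufa5 and the ZNF143/THAP11 site at Cox7b.

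**Figure D3:**
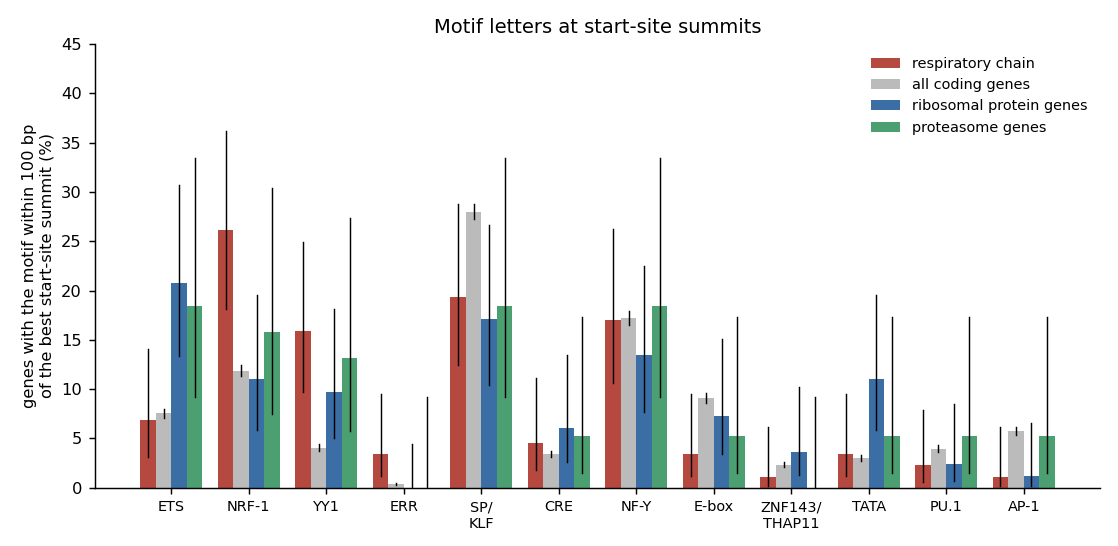
Share of genes (%) with each motif within 100 bp of the best start-site summit, for respiratory chain genes (red, 88 genes), all coding genes with a start-site peak (grey), ribosomal protein genes (blue) and proteasome genes (green); lines are 95% Wilson intervals. The red bar is above the grey one for NRF-1 (26.1% and 11.9%), YY1 and ERR, and slightly above it for CRE and TATA. For ETS it is near the level of the grey one.

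Sites of the highest scored members with each of these motifs show the same letters in different places. Cycs, printed above, was the highest with NRF-1, and Ndufa2, the third for YY1, is named only. The sites of Ndufa13 and Atp5g2 that lie inside the transcribed part are given as 30 bases. Capitals mark all motif letters, which in Atp5h also include a CCAAT box and in Atp5j a PU.1 site. The stretch of Atp5j ends before its summit.
Atp5g2, chr15:102671070-102671099, minus strand: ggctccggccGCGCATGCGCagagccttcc
Atp5h, chr11:115419945-115420087, minus strand: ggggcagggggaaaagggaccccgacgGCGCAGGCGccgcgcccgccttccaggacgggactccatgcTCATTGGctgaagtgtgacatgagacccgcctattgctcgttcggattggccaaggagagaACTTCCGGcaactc
Cox8a, chr19:7217609-7217744, minus strand: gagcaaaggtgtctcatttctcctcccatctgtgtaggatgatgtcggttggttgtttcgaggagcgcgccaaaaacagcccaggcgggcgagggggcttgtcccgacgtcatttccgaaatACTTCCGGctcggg
Ndufa13, chr8:69901641-69901670, minus strand: tccgctggtggCCGGAAGTtgcgggtcctg
Ndufa13, chr8:69901759-69901788, minus strand: aggagggactgACTTCCGGatcgcagcaag
Atp5g1, chr11:96075797-96075939, minus strand: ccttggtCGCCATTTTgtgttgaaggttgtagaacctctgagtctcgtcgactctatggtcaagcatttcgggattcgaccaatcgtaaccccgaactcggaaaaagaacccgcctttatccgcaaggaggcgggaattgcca
Atp5j, chr16:84834976-84835071, minus strand: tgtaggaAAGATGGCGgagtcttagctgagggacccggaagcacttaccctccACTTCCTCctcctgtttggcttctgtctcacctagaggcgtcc
Atp5g2 scored 1982, Atp5h 1747, Cox8a 2021, Ndufa13 1505, Atp5g1 2153 and Atp5j 1890. Atp5h held ETS and NRF-1 letters, and its ETS letters lie at the end of the stretch nearest to the start, as those of Cox8a do.

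Positions relative to the nearest annotated start of any transcript of the gene differed between motifs. The NF-Y sites of members lay upstream in 20 of 21 cases with a median of 81 bp, and the SP/KLF sites in 19 of 20 cases with a median of 42 bp. Shares over all genes were not counted for NF-Y and SP/KLF, so that this placement is not read as particular to members. NRF-1 sites lay on both sides, with a median of 31 bp upstream, and 10 of 29 lay downstream (34.5%, all genes 22.55%). YY1 sites lay around the nearest annotated start, with a median of 2 bp upstream and 12 of 15 within 100 bp. Because starts of all transcripts count, a site in a first exon can come out as upstream. The site of Ndufa7, at -14 bp, does so although it holds the start codon. Of the YY1 sites, 7 of 15 lay downstream (46.7%, all genes 53.5%), and 11 of 15 read on the strand of the gene (73.3%, 65.8% over all genes).

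**Figure D4:**
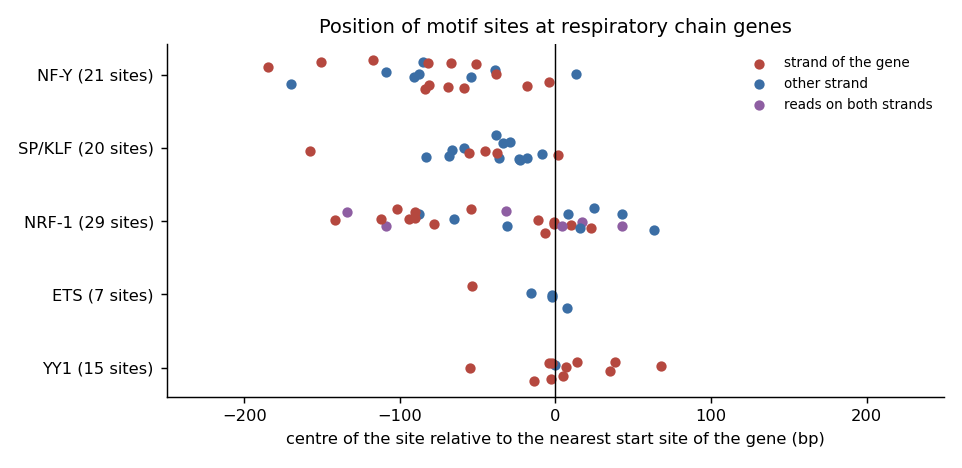
Centre of each NF-Y, SP/KLF, NRF-1, ETS and YY1 site at respiratory chain genes relative to the nearest annotated start (bp, negative is upstream), within 250 bp of it; 9 sites of these motifs further away and the sites of other motifs are not drawn, and colour gives the strand. NF-Y and SP/KLF sites sit upstream, while NRF-1 and YY1 sites lie on both sides of the nearest start, which is not always the first start of the gene.

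The letters of the YY1 motif hold an ATG, and in 10 of the 15 YY1 sites of members (66.7%) this ATG was an annotated start codon of the member itself. Over all coding genes with a peak this was so for 33.1% of 523 sites. The 10 were Ndufa2, Ndufa7, Ndufa9, Ndufc1, Ndufs3, Ndufs4, Ndufs6, Uqcrb, Uqcrc1 and Atp5j2. Within 200 bp of the summit the counts were 14 of 27 sites (51.9%) at members and 33.5% over all genes. The comparison was added after the data had been seen. All but that of Ndufa2 are printed with YY1 letters in capitals, in which the start codon is the ATG.
Ndufa7, chr17:33824617-33824646, plus strand: gagcggaaggAATATGGCGtccgctactcg
Ndufa9, chr6:126849096-126849125, minus strand: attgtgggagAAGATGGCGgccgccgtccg
Ndufc1, chr3:51408914-51408943, minus strand: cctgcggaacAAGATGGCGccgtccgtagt
Ndufs3, chr2:90904631-90904660, minus strand: cacactaaggAACATGGCGgcggctgcagc
Ndufs4, chr13:114388040-114388069, minus strand: tgcctacaggAAGATGGCGgcggtctcaat
Ndufs6, chr13:73328430-73328459, minus strand: ggtcaccggcAAGATGGCGgcggtgctgac
Uqcrb, chr13:66905295-66905324, minus strand: ctctcaggtcAAAATGGCGggccgatctgc
Uqcrc1, chr9:108936706-108936735, plus strand: cggaagttagAAGATGGCGgcgtccgcagt
Atp5j2, chr5:145191499-145191528, minus strand: ccaggacttcAAGATGGCGtcactcggtga
In each of them the codon after ATG is GCG, which the motif itself fixes. Letters kept as a start codon and letters bound by YY1 cannot be told apart from sequence.

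The surroundings of members were described by the extended regions within 50 kb of the most upstream start. Members had a median of 6 (interquartile range 4 to 8, from 0 to 15). The median was 4 over all coding genes, of which many have no accessible region nearby, and 7 over coding genes with a start-site peak. Among the most were those around Cox4i1 and Atp5d with 15 each, Ndufa2 with 13, and Atp5a1 and Ndufs8 with 12 each. The fewest were 0 at Cox7b2 and 1 each at Cox7c, Cox8c, Ndufaf4 and Ndufaf5. Cox7c scored 1734 at its start with no other extended region within 50 kb. The isoforms Cox4i2 and Ndufa4l2 had 9 regions each in their windows without a peak at the start.

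**Figure D5:**
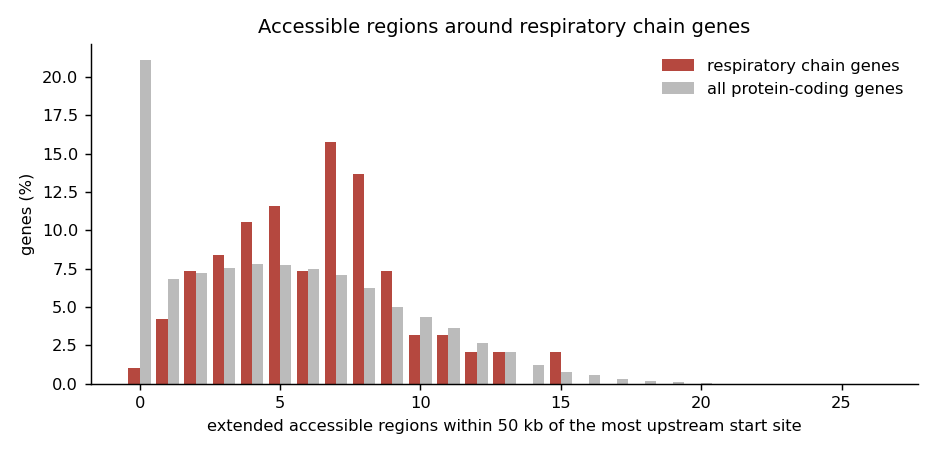
Share of genes (%) by the number of extended accessible regions within 50 kb of the most upstream start, for the 95 respiratory chain genes (red) and all protein-coding genes (grey). Members lie between 0 and 15 regions with a median of 6, and 1 member is in the bar at 0.

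Within these windows, 425 reference peaks lay over 1000 bp from any coding start. Their median best score was 654, against 675 for all 61170 such distal peaks. AP-1 letters were at 18.6% of them (all distal peaks 23.6%) and PU.1 letters at 9.41% (all distal peaks 10.7%), whereas NRF-1 letters were at 0.471% (all distal peaks 0.330%). At the start sites of members AP-1 letters were found at 1 and PU.1 letters at 2 of 88.

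Other genes of the pathway were taken from lists of general knowledge. Of 82 such genes, 77 had a start-site peak, with a median score of 1568. All 41 other assembly factors, which serve complex I (such as Foxred1, Timmdc1 and Ecsit) as well as other complexes, and all 13 genes of mitochondrial DNA expression had one, with Tfam, which packages mitochondrial DNA, at 1747. Those without were Esrrb, Esrrg, Ppargc1a, Cyct and Slc25a31. Of these, Cyct and Slc25a31 encode testis forms of cytochrome c and of the ADP/ATP carrier, and Ppargc1a encodes the coactivator PGC-1alpha, whose nearest peak lay 441335 bp from the start. The other 11 of 14 regulators had a peak. Esrra scored 2388, Sp1 2297, Yy1 2127 and Nrf1 1619, and of the GABP subunits Gabpa scored 1890, Gabpb2 1696 and Gabpb1 1106. The value of Gabpa is that of the summit in the peak it shares with Atp5j, so that it is given for both genes. The coactivators related to PGC-1alpha scored 1670 (Pprc1) and 1117 (Ppargc1b), and the receptors Ppard and Ppara 1594 and 856. Cyc1, the heme subunit of complex III that the naming rule leaves out, scored 1082.

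Cytosolic ribosomal protein genes and proteasome subunit genes are used in all cells like most members. A start-site peak was present at 82 of 92 (89.1%) and 38 of 40 (95%) of them, with median scores of 1594 and 1588. They shared a start-site peak with another coding gene in 18.3% and 26.3% of cases (members 38.6%). NRF-1 letters were at 10.98% and 15.8% of them (members 26.1%), and YY1 letters at 9.76% and 13.2% (members 15.9%). With the palindromic NRF-1 consensus the shares were 3.66% and 10.5% (members 11.4%), so that the proteasome genes and the members lay close together. These are descriptions without a test.

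The stretches of 38 and 76 bases within 100 bp of each best summit, the shortest and the full read length, were searched on all nuclear chromosomes. At 84 of 88 members no stretch of 38 bases occurred again, and at 87 none of 76 bases. The exceptions were Ndufb11, with 63.4% of the stretches of 38 bases and 36.5% of those of 76 bases repeated, and, at 38 bases only, Cox7c (12.2%), Ndufa7 (10.98%) and Ndufb2 (2.44%). Mapped reads were not examined, and the part of repeated sequence in these scores was not tested.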

How the data were processed

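The authors sequenced the ATAC-seq libraries from 1 end, with 76 bases per read. Adapters were removed with BBDuk, low-quality ends with Trimmomatic (0.39 in the submitters' processing notes, as the versions below), and the rest was mapped to mm10 with ShortStack. Mitochondrial reads were discarded with SAMtools (version 1.9). Peaks were called with MACS2 (version 2.2.6) with summits, a fixed read extension of 146 bases, no local background model and duplicates kept, and were filtered for a stringent q-value and overlap between replicates. A shift to the Tn5 cut is not named, and kept duplicates can raise a summit. The authors deposited 3 lists pooled over all libraries. Every summit carries a score that the authors deposited, with its scale not stated. The other deposited columns, classed as other, are positions. No column belongs to 1 library, 0 columns belonged to other samples, and depth per library is unknown.

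Genes and start sites were taken from GENCODE M21, and sequence from GRCm38.p6, whose primary chromosomes have mm10 coordinates. Positions are counted from 1. Overlaps, motif counts and figures were computed with Python (3.11.15), numpy (2.4.6), scipy (1.17.1), pysam (0.24.0) and matplotlib (3.10.9), and were tested on simulated sequence with planted peaks and motifs. Named genes were chosen by fixed rules: members without a peak, the extremes of score, width and region number, tissue isoforms and partners, chromosome X, Cycs, Cox4i1, Cox5b and complex II, and the highest scored holders of each motif. Genes outside them were named after their values were seen. The members and lists were chosen with earlier results of these data known. Alternatives were other windows, start sites, motif forms and gene subsets. Results for some genes that these rules name are not reported here.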

Additional observations from a re-analysis of the deposited data

How the results depend on the processing

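No paired analysis was possible because the lists carry no column per library, and for the same reason no replicate could be left out. The median score and width of members moved by less than the spread among members under all alternatives run for them, and the score of the summit nearest to a start had a median of 1363 (all genes 1308). Without tissue isoforms, 98.9% of members had a start-site peak. Within 100000 bp the median number of extended regions was 11 (all genes 9). The shorter ETS core gave 17.05% (all genes 12.4%) and the palindromic NRF-1 consensus 11.4% (all genes 4.37%). YY1 letters were at 5.68% of members within 50 bp of the summit (all genes 1.5%), 29.5% within 200 bp (all genes 7.596%) and 5.26% from 250 bp before to 50 bp after the most upstream start (all genes 2.91%). This last window was counted over all genes, those without a start-site peak included, so that window and gene set changed together. In a window of 50 bp, ERR letters were at 1.14% of members (all genes 0.194%), E-box letters at 1.14% (all genes 4.999%), and ZNF143/THAP11 and PU.1 letters at 0% (all genes 1.38% and 2.37%), from 1 and 2 members within 100 bp. Within 200 bp, CRE letters were at 6.82% (all genes 3.88%), E-box at 7.955% (all genes 12.9%), AP-1 at 4.545% (all genes 8.152%), ZNF143/THAP11 at 3.409% (all genes 3.088%) and PU.1 at 2.273% (all genes 5.306%). The share of members with NRF-1 and YY1 letters stayed above that of all genes in all alternatives run. The ETS share lay above it with the 200 bp window, the shorter core and the window at the most upstream start (6 of 95 members, against 6 of 88 at summits), and below it otherwise. The number of genes limits these shares, and depth could not be examined.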
